A study of Rattus norvegicus with 6 samples.

Results

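Collagens are secreted proteins built from 3 alpha chains wound around each other, and each chain is the product of a gene of its own. The collagen genes of the rat were measured here in replicating and quiescent pancreatic β-cells. Members were taken by the gene name that the array files give a probe, which returned 40 names on 55 probes. One of them, *Col4a3bp*, encodes a ceramide transfer protein and not a collagen (difference 0.47, not called), so that 39 collagen genes were described, out of 17760 genes with a symbol and 45598 probes on the array. Where a gene had more than 1 probe, the brightest over all 6 arrays was used. That mean holds the values of both groups, so a probe can be chosen through the group where it is bright. The family as a whole was chosen from log2 differences of replicating against quiescent cells on these same arrays, and its counts are given as a description that supports nothing further. Chains were sorted by their known structure into 11 fibrillar, 4 basement membrane (type IV) and 24 other collagens.

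All samples came from young adult male Wistar rats, an outbred strain, and the labels name no genotype or drug. Islets pooled from 4 rats made 1 preparation, and 3 preparations were used. They were cultured overnight at basal glucose with EdU, a thymidine analogue that is built into newly made DNA, then dispersed, loaded with the zinc-binding dye Newport Green, fixed and sorted by size, granularity and dye. EdU-positive cells of that gate are called replicating and EdU-negative cells quiescent, and each preparation gave 1 array of either kind (n = 3 against 3). Each array thus stands for a pool of 4 animals, and the gate selects cells by light scatter and zinc rather than by a β-cell gene. The paper reports that nearly all cells of either sorted fraction stained for insulin and c-peptide. It adds that some other endocrine cells were not kept out. By quantitative PCR, it reports no detectable amylase, duct keratin, endothelial marker or α-smooth muscle actin in the sorted cells. Vimentin, which it describes as a cytoskeletal component of mesenchymal cells, was detected in both fractions and was higher in the replicating fraction.

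Fibrillar collagens (types I, III and V among them) assemble into the ropes of connective tissue, which in most organs are laid down by fibroblasts and their relatives. Type IV chains form the sheet-like network of basement membranes, and type VI chains form beaded filaments beside it. In the islet, β-cells rest on a basement membrane around capillaries, and they are known to depend largely on neighbouring endothelial and stromal cells for it.

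Array quality set limits on the comparison. Between 80.8% and 87.3% of probes were well above background on the replicating arrays and quiescent array 3, and 96.4% and 98.4% on quiescent arrays 1 and 2. No spot was saturated. Correlations between the replicating arrays lay between 0.967 and 0.986 over all probes, and quiescent array 3 correlated with them at 0.943 to 0.969. Quiescent array 1 correlated with the replicating arrays and quiescent array 3 at 0.867 to 0.887. The quiescent arrays were thus less alike than the replicating arrays. Quiescent array 2 correlated with the other arrays at only 0.654 to 0.830 and carried 1583 spots marked as outliers, against 252 to 299 elsewhere. Quiescent array 2 was the highest of all 6 arrays for 16 of the 39 collagen genes. Values without preparation 2 are therefore set beside several of the results below that rest on this array. All 8 genes of cell division that check the EdU sort were called higher in replicating cells by the rule below (median log2 difference 3.63). The insulin genes differed by 0.25 (*Ins1*) and 0.42 (*Ins2*) on the log2 scale, replicating minus quiescent, without passing the threshold below. The paper reports the opposite direction by quantitative PCR, with insulin expression significantly lower in replicating cells.

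Each probe was compared with limma, pairing the arrays of a preparation. A gene was called when its unadjusted p was at most 0.05 and its log2 difference at least 1 in either direction. No probe on the array reached an adjusted p of 0.05 (4379 probes, 9.6%, had an unadjusted p under 0.05), and the lowest adjusted p of a collagen gene was 0.149, so every call below is unadjusted. Over all probes, 4.44% were called higher and 4.18% lower. Of the 39 collagen genes, 8 were called higher in replicating cells, where 5.93% of all genes with a symbol were, and 2 were called lower, where 2.6% were. With normexp values scaled to the 75th percentile instead of quantile normalized, the calls split into 8 higher and 5 lower. Every replicating array lay above every quiescent array for 10 collagen genes (11.0% of all genes), and below for 1 (5.77%). Over the whole family, 18 genes had a difference above 0 and 21 below, and the median log2 difference was -0.05, beside 0.02 over all genes with a symbol. Of the 39 probes, 33 were well above background on all 6 arrays. In the plot by class, *Col5a3* and *Col4a1* passed the threshold at estimates below that of *Col1a1*, which did not.

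**Figure D1:**
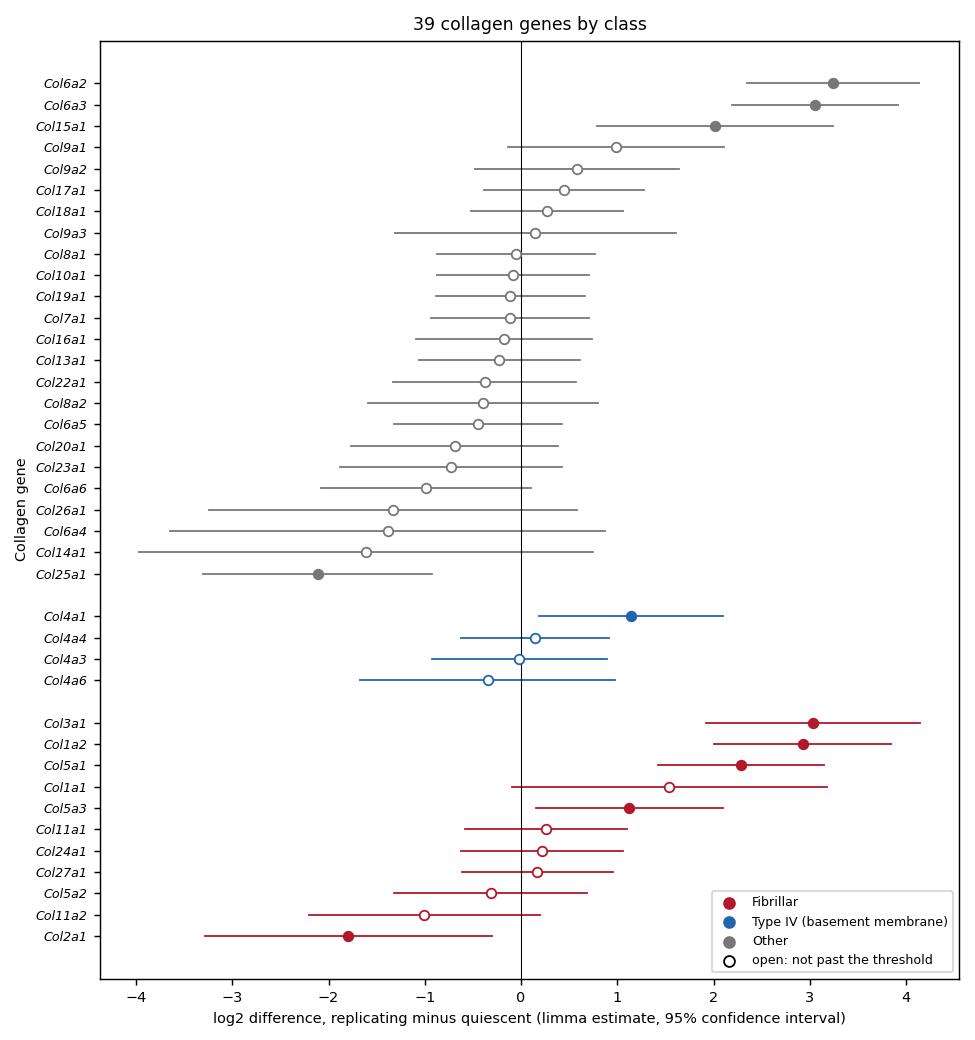
Log2 difference of replicating minus quiescent β-cells (horizontal axis) for each of the 39 collagen genes, coloured by class, with the 95% confidence interval of the limma estimate; filled points passed the unadjusted threshold. The estimates run from -2.11 (*Col25a1*) to 3.24 (*Col6a2*), and 29 genes are open points.

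Among fibrillar collagens, 4 of 11 genes were called higher and 1 lower, with a median difference of 0.26, and of 0.65, 0.34 and 0.50 in preparations 1, 2 and 3. That median was 0.43 without preparation 1 and 0.44 without preparation 2. The largest of these differences belonged to *Col3a1*, which encodes the only chain of type III collagen, the fibril of pliable tissues. *Col3a1* read 13.70, 11.73 and 13.57 on replicating arrays 1, 2 and 3 and 10.48, 9.65 and 9.76 on the quiescent arrays (normalized log2 values). The groups did not overlap, and replicating array 2 was the lowest of its group. The difference was 3.04 ± 0.44 (SE, n = 3 pairs), or 8.21-fold, with an adjusted p of 0.240 from limma.

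*Col2a1*, the chain of cartilage type II collagen, went the other way. It read 8.94, 9.37 and 9.10 on the replicating arrays and 11.48, 12.02 and 9.29 on the quiescent arrays. Replicating array 2 exceeded quiescent array 3, so the groups overlapped, and most of the gap came from quiescent arrays 1 and 2. The difference was -1.79 ± 0.58 (adjusted p = 0.475 from limma), and it was no longer called without preparation 1 (-1.42) or without preparation 2 (-1.36). The probes of both genes are printed here because the measurements of opposite sign rest on related pieces of coding sequence. In the best ungapped alignment, 20 of 34 paired bases were alike, and these are in capitals (5′ to 3′, on the strand of the transcript). The first lies at chr9:44317465-44317524 on the plus strand and the second at chr7:136679416-136679475 on the minus strand of build rn4.
Col3a1 probe: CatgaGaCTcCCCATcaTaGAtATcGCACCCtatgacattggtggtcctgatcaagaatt
Col2a1 probe: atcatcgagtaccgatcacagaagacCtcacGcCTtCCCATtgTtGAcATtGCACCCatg

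Type I collagen, the main fibril of skin, bone and scar, is built from the products of *Col1a1* and *Col1a2*. *Col1a2* read 13.63, 12.42 and 13.52 in replicating and 10.36, 10.13 and 10.30 in quiescent cells. The quiescent arrays were close together, and all replicating arrays were above them. *Col1a2* differed by 2.93 ± 0.36, or 7.61-fold, with an adjusted p of 0.181 from limma. Its promoter is shown as the regulatory sequence of a fibrillar gene that was called under every setting tried. The 250 bases before the annotated start of *Col1a2* (RefSeq, build GRCr8, chr4:33518307-33518556, plus strand) hold, in capitals, the letters CCAAT on the opposite strand (as ATTGG) and TATAAA.
Col1a2 promoter: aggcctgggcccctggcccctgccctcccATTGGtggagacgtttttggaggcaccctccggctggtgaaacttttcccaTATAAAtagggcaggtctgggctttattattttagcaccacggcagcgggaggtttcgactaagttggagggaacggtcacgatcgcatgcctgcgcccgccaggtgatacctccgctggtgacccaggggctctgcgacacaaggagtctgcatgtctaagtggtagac

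The partner chain *Col1a1* gave a value that depended on the probe. On the brightest probe it read 13.06, 11.23 and 12.55 in replicating and 10.62, 11.51 and 10.08 in quiescent cells. Quiescent array 2 lay above replicating array 2, and the difference of 1.54 ± 0.64 was not called (adjusted p = 0.475 from limma). Without preparation 2 it was 2.45 and was called. Its other probe, 1083 bases upstream in the transcript, read 13.13, 11.29 and 12.52 in replicating and 9.30, 6.98 and 9.62 in quiescent cells, a difference of 3.68 (adjusted p = 0.149 from limma). On that probe the groups did not overlap, and quiescent array 2 was the lowest array instead of the highest of its group. The brightest probe was the brighter in quiescent cells (mean 10.74 against 8.64) but not in replicating cells (12.28 against 12.31).

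Type V collagen, which nucleates and thins the fibrils of type I, has chains from *Col5a1*, *Col5a2* and *Col5a3*. *Col5a1* read 11.29, 9.23 and 10.81 in replicating and 8.53, 7.32 and 8.63 in quiescent cells. The groups did not overlap, and array 2 was the lowest of either group. The difference was 2.29 ± 0.34, or 4.87-fold (adjusted p = 0.265 from limma), and a second probe gave 2.24. *Col5a3* read 10.97, 10.33 and 10.96 in replicating and 10.03, 9.74 and 9.12 in quiescent cells. It differed by 1.12 ± 0.38, or 2.18-fold, again without overlap (adjusted p = 0.475 from limma). It was no longer called without preparation 1 (1.21) or preparation 3 (0.76).

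*Col5a2* was split between its probes. Its brightest probe read 12.86, 13.08 and 12.68 in replicating and 13.62, 13.76 and 12.18 in quiescent cells, a difference of -0.32 ± 0.39 that was not called. The second probe read 10.79, 10.14 and 10.91 in replicating and 7.63, 6.64 and 8.31 in quiescent cells, a difference of 3.08 (adjusted p = 0.161 from limma) without overlap. They start 42 bases apart in the transcript and share 18 bases. The last 30 bases of the brightest probe (rn4, chr9:44374155-44374184, minus strand) are printed with the shared bases in capitals. A run of CA repeats of 12 bases reaches into the shared part, and the second probe holds no such run longer than 2 bases.
Col5a2 brightest probe, last 30 bases: agccacacacacACAACTTTGGTCATGTAT

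The other fibrillar genes were not called. *Col11a1*, *Col24a1* and *Col27a1* differed by 0.26, 0.22 and 0.17, and *Col11a2*, whose product joins type XI fibrils of cartilage, by -1.0 (95% confidence interval -2.21 to 0.20). Without preparation 2, *Col11a2* differed by -0.58. *Col27a1*, chosen here after its values were seen, read between 14.98 and 15.42 on all 6 arrays on its brightest probe. Its second probe read between 10.91 and 12.09, so the level depended on the probe. The fibrillar class thus held 8 positive and 3 negative estimates, and its spread from -1.79 to 3.04 was wider than its median was far from 0.

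**Figure D2:**
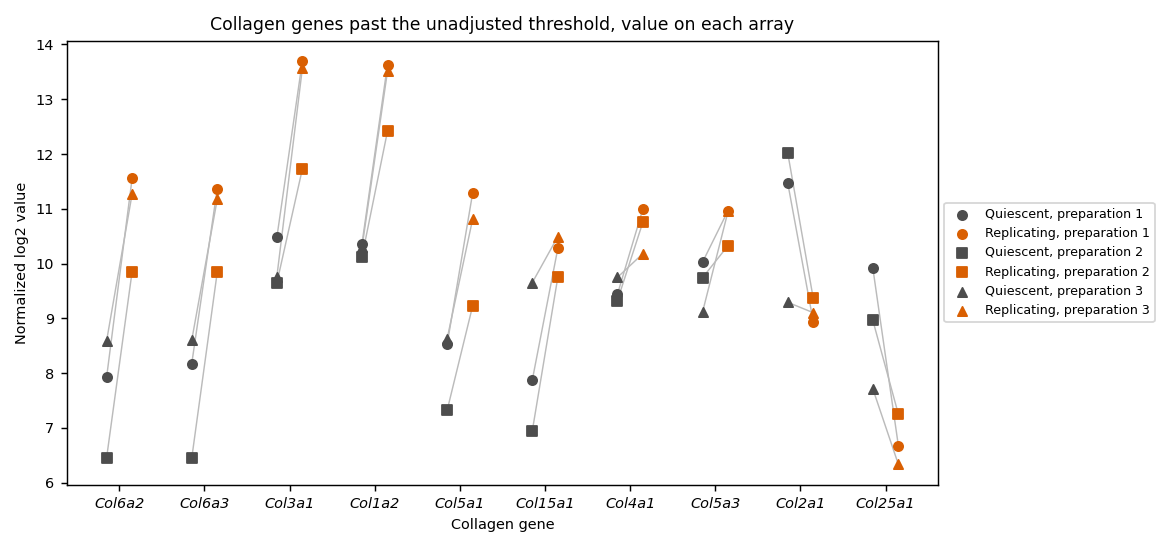
Normalized log2 value on each array for the 10 collagen genes past the unadjusted threshold; grey symbols are quiescent and orange symbols replicating cells, the shape gives the islet preparation, and lines join arrays of 1 preparation. The groups are apart for 9 genes and overlap for *Col2a1*.

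Type IV collagen is made of trimers that pair *Col4a1* with *Col4a2*, or draw on *Col4a3* to *Col4a6*. The class by array name had 1 called gene of 4 and a median of 0.06, which turned negative under 75th percentile scaling (-0.38 for normexp values and -0.93 for the processed signal), without preparation 1 (-0.04) and with only probes well above background (-0.02). Without preparation 2 the median was 0.29, and without preparation 3 it was 0.0098. *Col4a1* read 11.00, 10.76 and 10.18 in replicating and 9.44, 9.33 and 9.75 in quiescent cells. The groups did not overlap, although the gap in preparation 3 was only 0.44. *Col4a1* differed by 1.15 ± 0.37, or 2.21-fold (adjusted p = 0.475 from limma), and it was no longer called without preparation 1 (0.94) or without preparation 2 (1.0).

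*Col4a2* carries no such name in the files and was found through its probe description. It read 11.32, 10.45 and 10.64 in replicating and 9.94, 9.19 and 9.64 in quiescent cells, and the groups did not overlap. The difference of 1.22 ± 0.31, or 2.32-fold (adjusted p = 0.475 from limma), was close to that of its partner, and it was lost without preparation 1 (1.13). The genes of both chains lie head to head, and the whole stretch of 76 bases between their start sites is shown because the genes on either side of it differed by like amounts between the groups (RefSeq, GRCr8, chr16:84885521-84885596, strand of *Col4a1*). The capitals mark GGGCGG, here as CCGCCC on the opposite strand.
Col4a2 to Col4a1: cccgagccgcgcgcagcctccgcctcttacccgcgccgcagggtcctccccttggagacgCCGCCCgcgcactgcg

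The other type IV pairs lie head to head as well, 412 bases apart for *Col4a4* and *Col4a3* and 1414 for *Col4a6* and *Col4a5*. *Col4a3* and *Col4a4* differed by -0.02 (95% confidence interval -0.93 to 0.89) and 0.14 (-0.63 to 0.92), and without preparation 2 *Col4a3* differed by 0.27. *Col4a4* was dim, being well above background on 1 replicating and 2 quiescent arrays. *Col4a6* differed by -0.35 and *Col4a5*, again found by description, by -0.99. Both owed their sign to quiescent array 2, where they read 8.70 and 10.53 against 6.50 to 6.79 on the other quiescent arrays. Without preparation 2 they differed by 0.31 and 0.33.

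Large differences lay in type VI collagen as well, whose microfibrils tie cells to basement membranes and fibrils. *Col6a2* read 11.55, 9.85 and 11.27 in replicating and 7.92, 6.45 and 8.59 in quiescent cells. *Col6a3*, the longest of its chains, read 11.37, 9.84 and 11.17 in replicating and 8.17, 6.45 and 8.60 in quiescent cells. Both kept the groups apart, and in both array 2 was the lowest of its group.

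*Col6a2* differed by 3.24 ± 0.35, or 9.44-fold (adjusted p = 0.149 from limma), and *Col6a3* by 3.06 ± 0.34, or 8.31-fold (adjusted p = 0.161 from limma). Without preparation 2 they differed by 3.16 and 2.88, below *Col3a1* (3.51) and *Col1a2* (3.24). Each has a second, dimmer probe that was not called, at -0.19 (95% confidence interval -2.23 to 1.84) for *Col6a2* and at 0.82 (-0.68 to 2.32) for *Col6a3*. For *Col6a2* the second probe was dimmer in replicating cells (mean 7.49 against 10.89) but not in quiescent cells (7.69 against 7.65). *Col6a1*, the obligate partner of *Col6a2* and *Col6a3*, was found by description. It read 10.20, 9.0 and 9.96 in replicating and 7.17, 6.78 and 7.63 in quiescent cells, without overlap. *Col6a1* differed by 2.52 ± 0.34, or 5.75-fold (adjusted p = 0.226 from limma). The promoter of *Col6a3* (RefSeq, GRCr8, chr9:98886959-98887208, minus strand) is set beside that of *Col1a2* because both genes were called and it holds neither CCAAT on either strand, nor the TATAAA motif, nor the GGGCGG motif.
Col6a3 promoter: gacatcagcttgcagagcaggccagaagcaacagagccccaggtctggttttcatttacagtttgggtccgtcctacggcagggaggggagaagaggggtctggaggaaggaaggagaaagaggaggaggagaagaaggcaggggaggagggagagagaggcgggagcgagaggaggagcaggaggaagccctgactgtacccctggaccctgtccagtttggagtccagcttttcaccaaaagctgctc

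The promoter table held 31 of the 39 collagen genes and 6 of the 8 called higher. Within the 250 bases before the start, CCAAT was found in 3 of these 6, 9 of the 31 and 34.3% of 27457 promoters. GGGCGG was found in 3 of the 6, 17 of the 31 and 32.4% of all promoters, and TATAAA in 1, 4 and 13.1%. The motifs are short, and in the promoters printed here they do not overlap each other. None of these matches was tested as a binding site.

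The remaining chains of the type VI group, *Col6a4*, *Col6a5* and *Col6a6*, differed by -1.39, -0.44 and -0.98 and were not called. *Col6a4*, named after its values were seen, read 12.27 on quiescent array 2 and 8.17 to 8.36 on the other 5 arrays, and it differed by -0.05 without preparation 2. The same array set the estimate of *Col14a1*, a collagen that decorates fibrils, which read 11.60 there and 7.10 to 7.86 elsewhere. *Col14a1* differed by -1.61 (95% confidence interval -3.97 to 0.75), and by -0.24 without preparation 2.

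The multiplexins are basement membrane collagens whose ends are cut off as small fragments. *Col15a1* read 10.28, 9.75 and 10.49 in replicating and 7.87, 6.94 and 9.65 in quiescent cells. The groups did not overlap, although 9.75 on replicating array 2 lay just above 9.65 on quiescent array 3. *Col15a1* differed by 2.02 ± 0.48, or 4.04-fold (adjusted p = 0.475 from limma), and was no longer called without preparation 1 (1.82). Without preparation 2 it differed by 1.62. *Col18a1*, the source of endostatin, differed by 0.27 (95% confidence interval -0.52 to 1.06).

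Transmembrane collagens stay anchored in the cell that makes them, and 1 of 4 was called lower. *Col25a1*, known for a fragment found in amyloid plaques, read 6.68, 7.25 and 6.34 in replicating and 9.92, 8.96 and 7.71 in quiescent cells. Every replicating array lay below every quiescent array, and 2 of the 3 replicating arrays were well above background. *Col25a1* differed by -2.11 ± 0.47 (adjusted p = 0.475 from limma), whereas its dimmer probe gave -0.31 (95% confidence interval -1.15 to 0.53). The remaining transmembrane chains lay between -0.72 and 0.44.

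None of the 8 fibril-associated and 3 short-chain genes was called. The fibril-associated genes ran from -1.61 to 0.99, the upper end being *Col9a1*, named after its values were seen, whose arrays did not overlap (9.52 to 10.26 in replicating, 8.17 to 9.41 in quiescent cells) and which differed by 0.51 without preparation 2. *Col19a1* was not well above background on any replicating array. The short-chain genes *Col8a1*, *Col8a2* and *Col10a1*, which build hexagonal lattices, lay between -0.39 and -0.05. *Col7a1*, the chain of the anchoring fibrils of skin, differed by -0.11, and *Col26a1*, which read 11.47 on quiescent array 2 and 7.60 to 8.90 elsewhere, by -1.33 and, without preparation 2, by -0.34. Of all 29 collagen genes without a call, 22 had a 95% confidence interval that reached a log2 difference of 1 or -1, so that a difference of that size lies within the error for them. The 24 chains outside the fibrillar and type IV classes had a median of -0.15, with 8 above 0 and 16 below, and of -0.04 without preparation 2.

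Within single preparations the called genes kept their order only in part. The 8 higher genes had median differences of 2.98, 2.19 and 2.38 in preparations 1, 2 and 3, and their lowest differences were 0.94, 0.59 and 0.44. In 7 of the 8, array 2 was the lowest of the replicating arrays, and in 7 of the 8 it was also the lowest of the quiescent arrays. Across the 39 genes, differences of preparations 1 and 2 correlated at r = 0.755, of 1 and 3 at 0.794, and of 2 and 3 at 0.520, a description over genes that share arrays. Left out in turn, the preparations gave 5, 8 and 8 genes called higher (without preparation 1, 2 and 3) and 1, 1 and 5 called lower. *Col1a2*, *Col3a1*, *Col5a1*, *Col6a2*, *Col6a3* and *Col25a1* were called under all 14 alternative settings.

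**Figure D3:**
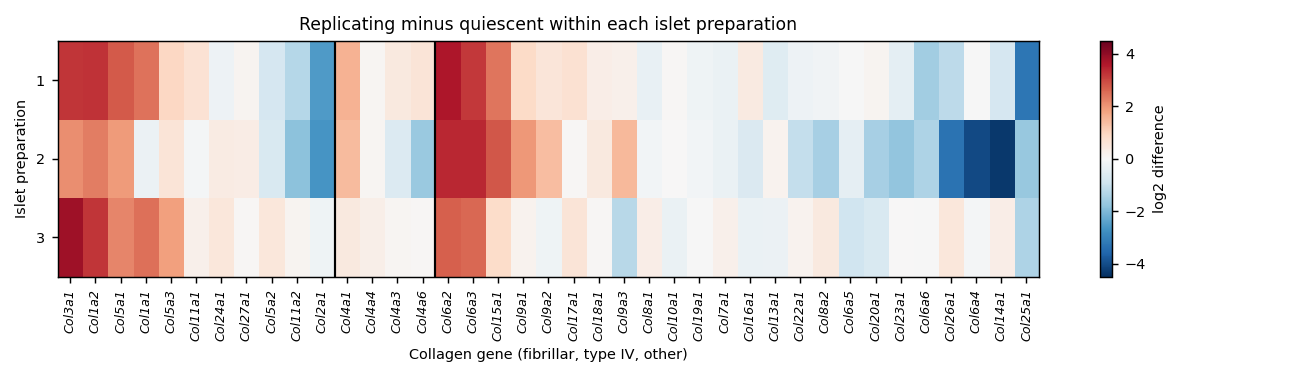
Log2 difference of replicating minus quiescent cells for the 39 collagen genes (columns; black lines part fibrillar, type IV and other chains) in each islet preparation (rows). *Col3a1*, *Col1a2*, *Col5a1*, *Col6a2* and *Col6a3* are red in every row, and the deepest blue cells, *Col6a4* and *Col14a1*, are in preparation 2.

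In all, 13 of the collagen genes had more than 1 probe. All probes of a gene had the same sign in 9 of them, and probes of a gene differed by more than 1 log2 unit in 7. When each gene was read as the median of its probes rather than the brightest, *Col5a2* turned to 1.38, and 10 collagen genes were called higher. Among the called genes with more than 1 probe, the second probe was called for *Col5a1* and was not for *Col6a2*, *Col6a3* and *Col25a1*.

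**Figure D4:**
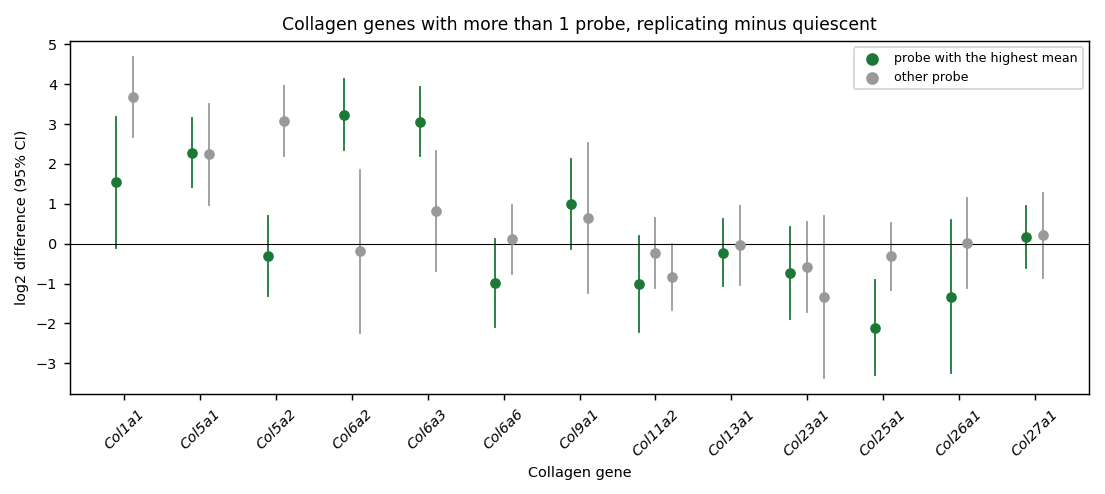
Log2 difference with its 95% confidence interval (limma) for each probe of the 13 collagen genes with more than 1 probe; green is the brightest probe, used above, and grey the others. Probes part most for *Col1a1*, *Col5a2*, *Col6a2*, *Col6a3* and *Col25a1* and lie together for *Col5a1* and *Col27a1*.

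Other genes that make, cut or bind collagen were taken from 5 lists. Of their 82 genes, 16 were called higher and 0 lower at the unadjusted threshold in limma, beside 5.93% and 2.6% of all genes with a symbol. Without preparation 1, 7 were called higher, and without preparation 3, 5 were called lower. Scaling to the 75th percentile of normexp values gave 3 called lower, and an offset of 0, the processed signal and cyclic loess gave 1 each. In the list of chain synthesis and processing, 3 of 30 were called higher, with a median of 0.27. These were *Lox* (1.73) and *Loxl2* (1.27), which cross-link chains, and *P4hb* (1.67), a subunit of prolyl hydroxylase. The brightest members, *Bmp1* (0.92) and *Plod3* (0.78), were not called.

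Among 12 genes of collagen breakdown, 4 were called higher, and the median was 0.52. *Mmp2*, a gelatinase, read 11.59, 9.98 and 11.16 in replicating and 8.61, 6.66 and 8.79 in quiescent cells, a difference of 2.89 (adjusted p = 0.173 from limma) without overlap. Its activator *Mmp14* differed by 2.18, the inhibitor *Timp2* by 1.69 and the collagenolytic protease *Ctsk* by 1.27. *Timp1* (0.68) and *Timp3* (-0.14), the brightest, were not called.

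Of 15 proteins that bind fibrils, 3 were called higher, with a median of 0.62, namely *Postn* (2.60), *Thbs1* (2.33) and *Fbn1* (1.36). *Bgn*, a bright proteoglycan gene, differed by 1.47 without a call. Of 16 basement membrane partners of type IV collagen, 5 were called higher, with a median of 0.19. They included the linker *Nid1* (2.03), the cross-linking peroxidase *Pxdn* (1.92), and the laminin chains *Lamc1* (1.51) and *Lama5* (1.42), while the bright *Agrn* differed by 0.22. Of 10 collagen receptors 1 was called higher, the fibril-sensing kinase *Ddr2* (1.37), and the median was 0.05; the integrin chains *Itgb1* and *Itga1* differed by 0.87 and -1.0 without a call.

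Markers of cells that the gate could also hold were read beside these results. Of 17 fibroblast and stellate cell markers, 3 were called higher, *Vim* (1.89), *Mgp* (1.62) and *Prrx1* (1.37), beside 5.93% of all genes with a symbol, and 13 were above 0, with a median of 0.26. Without preparation 1 it was 1 marker, without preparation 2 it was 6, and with the processed signal 0. The bright markers *Pdpn* and *Cspg4* differed by 0.72 and 0.15. Their summed signal was 6066 to 10622 on replicating and 4673 to 9994 on quiescent arrays, and its ratio within preparations 1, 2 and 3 was 2.27, 0.607 and 1.89. The paper likewise reports vimentin higher in the replicating fraction by quantitative PCR. Of the 17, 13 were well above background on every array and 1 was not on any replicating array. The part of such cells in the collagen differences was not tested, and in a sorted pool, fewer cells of a type and less RNA per cell cannot be told apart.

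For the other cell types, against the same 5.93% called higher and 2.6% called lower of all genes, 2 of 7 alpha cell markers (*Gcg*, 2.39, and *Gc*, 1.86), 2 of 8 immune markers (*Cd74*, 1.48, and *Cd68*, 1.32), 1 of 7 Schwann cell markers (*Mbp*, 2.03) and 1 of 7 acinar markers (*Prss1*, 1.56) were called higher. Above 0 were 5 of the 7 alpha, 7 of the 8 immune, 3 of the 7 Schwann and 5 of the 7 acinar markers. The medians of these lists were 0.82, 0.50, -0.05 and 0.24, and the Schwann markers ran from -1.11 to 2.03. None of 12 endothelial or 7 duct markers was called, with medians of 0.21 and -0.33. The paper's quantitative PCR detected none of its acinar, duct and endothelial markers in the sorted cells. Of 10 β-cell markers, 1 was called lower (*Mafa*, -1.01). Their part in the collagen differences was not tested.

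**Figure D5:**
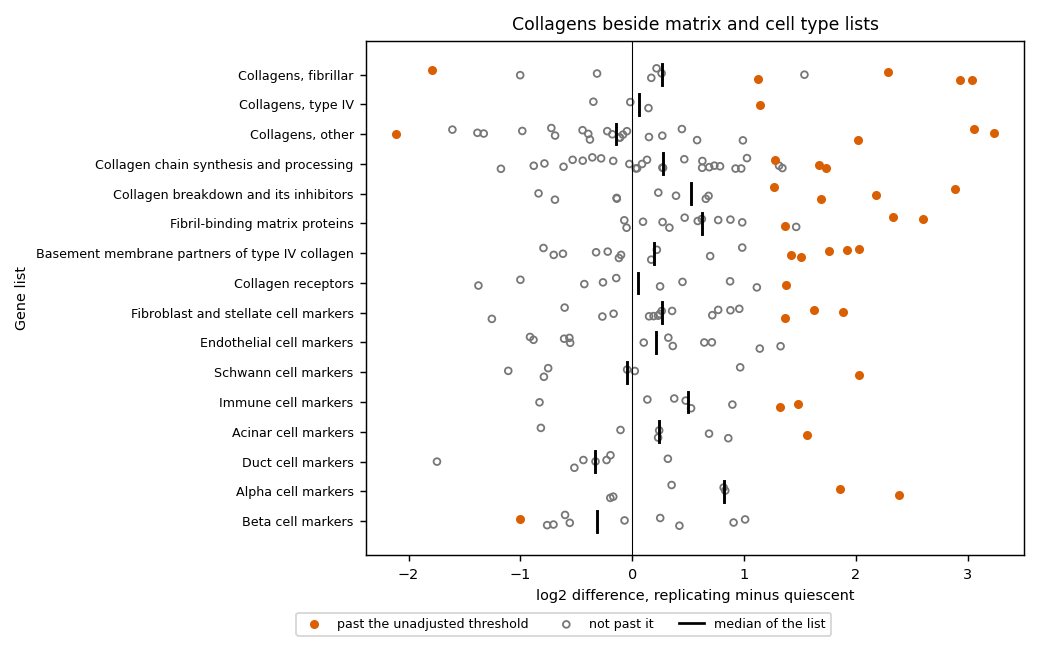
Log2 difference of replicating minus quiescent cells for each gene (points) of the 3 collagen classes, the 5 lists of collagen partners and the 8 lists of cell type markers; filled points passed the unadjusted threshold and bars mark the median of a list. The largest difference is 3.04 among fibrillar, 1.15 among type IV and 3.24 among other collagens, and 1.89 among fibroblast and stellate markers. The collagen family was chosen from such differences, so its extremes are a description only. The medians of the lists lie between -0.33 and 0.82.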

How the data were processed

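RNA of replicating and quiescent β-cells from 3 islet preparations was measured on 6 one-colour (Cy3) Agilent arrays that share 1 slide. The authors made cDNA by whole transcriptome amplification, labelled it and read the spots with Agilent Feature Extraction 10.7.3.1, which gave the deposited intensity of each spot and its background, not normalized between arrays. The deposited log2 values, made by the authors with normexp background correction and quantile normalization, were the values used here. They differed by at most 0.116 from values recomputed from the intensities with an offset of 50. The number of arrays limits the precision.

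Control spots were dropped, outlier-marked spots counted as missing, and spots carrying 1 probe were averaged. Each probe was tested with limma 3.58.1 in R 4.3.3 (lmFit and eBayes), with the preparation as a block and Benjamini-Hochberg adjustment over all 45598 probes. Replicate numbers in the labels and the series' design pair the arrays. Within a pair, deviations from the 2 group means correlated at r = 0.0561, 0.242 and 0.258 over 44652 probes. The fit was also run on data simulated from its own model with independent normal noise. Such data hold no outlying array, so that run cannot show how the fit treats one. Probe positions are on rn4, and promoters are RefSeq sequences of GRCr8.

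The members, lists and classes were chosen with earlier results of these data known. Genes named are the collagens with an unadjusted p of at most 0.05, the chains of types I, III, IV, V and VI set out in the text, *Col15a1* and *Col18a1*, the 3 largest differences in each direction, and in other lists up to 5 called members and the 2 brightest. *Col27a1*, *Col6a4* and *Col9a1* are marked in the text as named after their values were seen. *Col11a1*, *Col11a2*, *Col24a1*, *Col7a1*, *Col26a1*, *Col19a1* and the short-chain genes also lie outside this rule and carry no such mark. One list member that meets the rule is not reported here by name. Cell type and partner lists hold textbook genes. *Col4a3bp*, which had no value on quiescent array 2, was left out of the counts. The alternatives were other offsets and scalings, a filter on dim probes, outlier spots kept, a variance trend, no block, the median of a gene's probes, another basement membrane class and each preparation left out.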

Additional observations from a re-analysis of the deposited data

How the results depend on the processing

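The number of collagen genes called higher lay between 6 and 10 under all alternatives that kept every preparation, and between 5 and 8 with 1 preparation left out. The number called lower was 1 with the processed signal and 5 with normexp values scaled to the 75th percentile, and 1 to 5 with 1 preparation left out. These scalings moved the median difference of all probes from -0.07 to -0.71 and -0.39. The basement membrane median then went to -0.93 and -0.38, and the median of other collagens to -0.87 and -0.54. The fibrillar median was 0.64 with an offset of 0, 0.46 with an offset of 16, 0.67 with only probes well above background, 1.12 with the median over probes, 0.14 with either of these scalings, and 0.28 to 0.44 with 1 preparation left out. The basement membrane median was -0.02 with only probes well above background and -0.04 to 0.29 with 1 preparation left out. *Col5a2* reversed to 1.38 with the median over probes, since its second probe enters there.

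Over the whole array, 2023 probes were called higher and 1905 lower. The processed signal gave 662 and 3193, and the 75th percentile of normexp values 1596 and 5862. With 1 preparation left out the counts were 518 to 5112 higher and 63 to 5633 lower. Matrix genes called higher were 7 with the processed signal and 7 to 18 with 1 preparation left out. Without the replicate block that pairs the arrays, 878 probes were called lower, and 9 collagen genes were called higher and 2 lower. At an adjusted p under 0.05, 719 probes passed with the 75th percentile, 204 with cyclic loess, 99 without the block, 61 with a variance trend and 84 without preparation 2. The cause of these shifts was not tested. The lowest adjusted p of a collagen gene, 0.149 from limma, is that of the main fit only. With the 75th percentile of normexp values, the unadjusted p from limma was 2.1e-06 for *Col6a2* and 2.8e-06 for *Col1a2*. Both were among the 719 probes. Among single genes, *Col4a1* lost its call in 7 of 14 alternatives, *Col5a3* in 6, *Col2a1* and *Col4a2* in 3 and *Col15a1* in 1, and *Col1a1* gained one in 8. All arrays share the slide and scan, so no such block could be fitted.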
